A study of Mus musculus with 8 samples.

Results

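The 81 genes of the core and linker histones that the array annotation names, out of 19324 genes named on the array, were followed in mouse myeloid cells in which the activating E2F transcription factors had been targeted. The histone genes were taken up with earlier results of these data known, and membership was then set by symbol alone. Every probe set whose annotated symbol, or any of several, belongs to the H1, H2A, H2B, H3 or H4 nomenclature was taken. The result was 63 probe sets. Many histone genes are nearly identical in sequence, and 27 of the 63 probe sets carried several gene symbols. Probe sets that shared a histone gene, directly or through another probe set, were therefore counted as 1 unit and represented by whichever of them was brightest on average. This gave 12 units of replication-dependent cluster genes, with 55 genes and 35 probe sets, and 14 units of variant genes, with 26 genes and 28 probe sets. Symbols such as H2-, which belong to the major histocompatibility complex, were not taken, and H1f0 was not analysed here.

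The cells were bone marrow cells sorted for Cd11b, the integrin subunit of granulocytes and monocytes, from mice of a mixed FVB and C57BL6 strain aged 8 weeks. The control group (4 arrays) carried the genotype E2F1-/-2+/+3f/f, which labels E2f1 as null, and the floxed E2f3 alleles met no Cre. The experimental group (4 arrays) carried Mxcre;E2F1-/-2-/-3f/f, which labels E2f2 as null too, with a Cre transgene under the interferon-responsive Mx promoter, which acts well beyond the myeloid lineage. Both groups shared the E2f1-null label, the floxed E2f3 and the treatment, which was 5 doses of 250 ug of the interferon inducer pIpC on alternate days, with tissue taken 24 h after the final dose. Cre was present in every experimental sample and in no control, so its own effect and that of the E2f genotype cannot be told apart. The labels do not say whether each array is a separate animal, so the p-values rest on a spread that may be technical in part.

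Histones package DNA into nucleosomes, in which pairs of H2A, H2B, H3 and H4 form the core and H1 binds the linker. The bulk of each is made in S phase from multicopy genes that lie in clusters, whose transcripts lack introns and end in a conserved stem-loop in place of a poly(A) tail. Variant histones such as H2A.Z and H3.3 come from genes outside these clusters, with introns and polyadenylated transcripts. They are made through the whole cell cycle and are placed into chromatin independently of replication. H2ax is intermediate, since its transcript can end either in a stem-loop or in a poly(A) tail. E2F factors activate many genes of the G1 to S transition, those of replication origins and nucleotide synthesis among them. The labels name cRNA made by the standard Affymetrix protocol and do not give the primer, so how far the values of stem-loop transcripts reflect all of their RNA or only polyadenylated copies is not known here.

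Cluster histone transcripts were lower in the experimental cells across all 5 histone families, and units of variant genes, with 1 exception, did not pass in the fit without a block. Of the 12 cluster units, 7 fell (adjusted p below 0.05 in the limma fit over all 45037 probe sets) and 0 rose. They were units of H1f2, H1f4, both multigene groups of H2A, the 10-gene group of H2B, the 12-gene group of H3 and the 13-gene group of H4. Of the 14 variant units 1 fell, that of H2ax, and 0 rose. Among all probe sets tested, 2.58% passed in either direction, 1.55% fell and 1.03% rose. With replicate number as a block, 2277 probe sets passed and the H2az2 unit fell too. With the style of the sample codes as a block, 2582 passed, and the units of H2az2 and H2bc21 fell too. The median difference, experimental minus control, was -0.99 on the log2 scale over the cluster units and -0.06 over the variant units, beside 0.00 over all probe sets. These medians rest on the brightest probe set of each unit. The cluster median was -0.67 with the mean of all probe sets of a unit and -0.57 over genes with a probe set of their own, and the median over the 35 cluster probe sets was -0.53. In 8 cluster units and 2 variant units all 4 experimental arrays lay below all 4 controls, which 6.15% of all probe sets showed. Of the 16821 probe sets with a mean of at least 6, 1751 showed it. For each of these 10 units the two-sided exact permutation p was 0.0286, the smallest that 4 against 4 arrays can give. The median over the 28 variant probe sets was -0.09. Of the 15 with a mean of at least 6, 13 were below 0, with a median of -0.20, and 6 lay below all controls. Of the 16 such cluster probe sets, 16 were below 0, with a median of -1.19, and 12 lay below all controls. Over all 16821 such probe sets, 9230 were below 0 and the median was -0.04. In RNA from a sorted population, fewer cells of a type and less RNA per cell cannot be told apart.

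**Figure D1:**
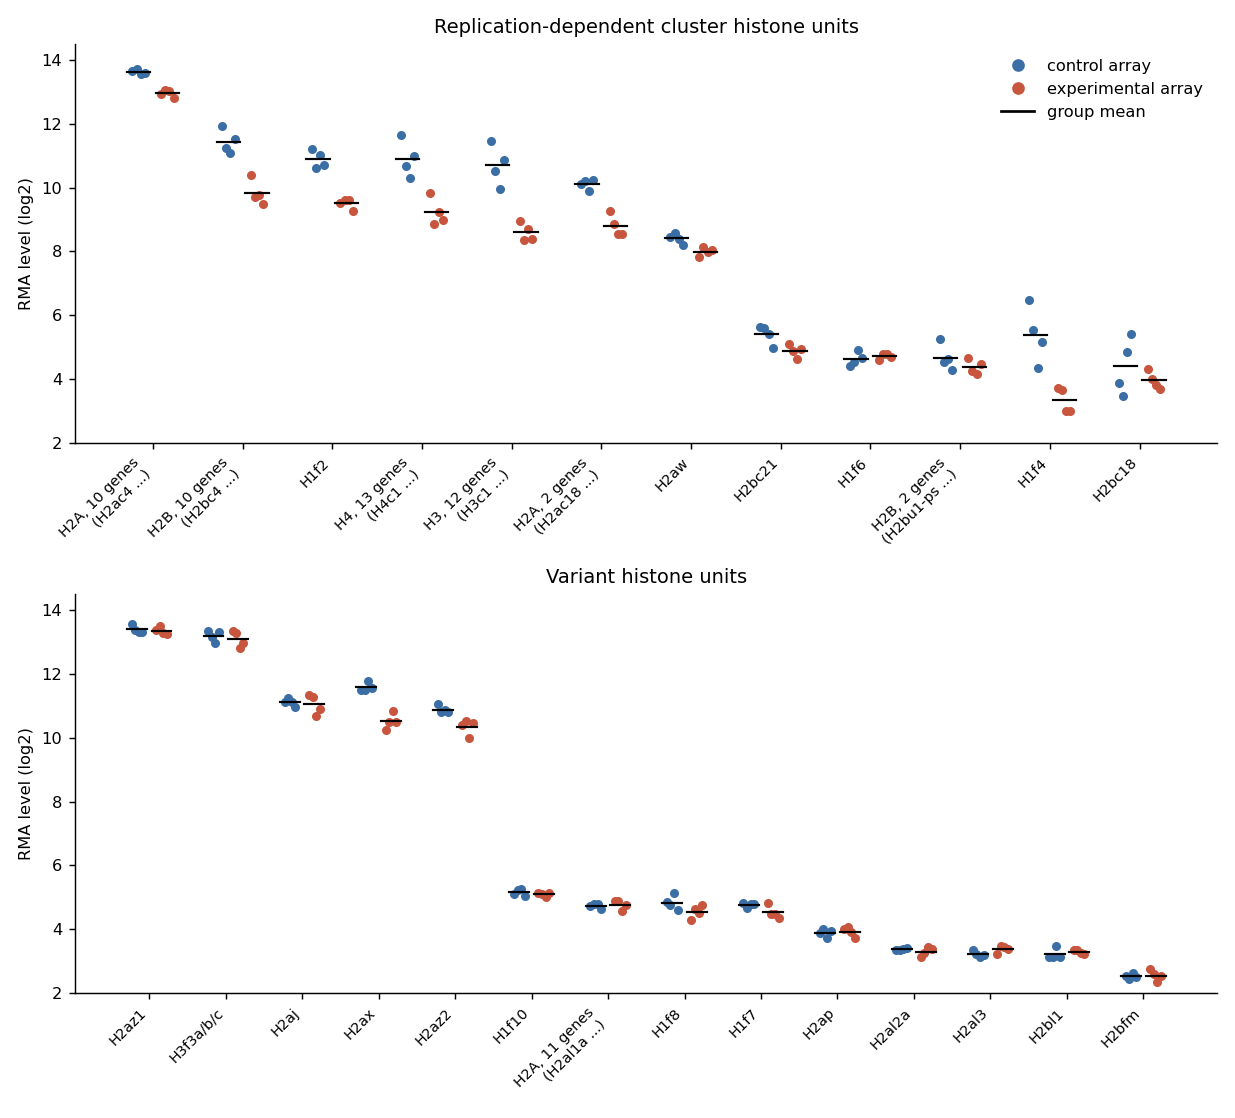
RMA levels (log2, vertical axis) of the brightest probe set of each histone unit in the 4 control arrays (blue) and the 4 experimental arrays (red), with black lines at the group means, for cluster units above and variant units below. In the cluster units of H1f2, H1f4, H2A, H2B, H3 and H4 that fell, no experimental array reached a control, whereas the arrays of H2az1, H3f3a/b/c and H2aj overlapped. Levels of different units come from different probes and are not comparable with one another.

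Because 7 cluster units fell and 0 rose, their promoters are shown for 4 genes of units that fell, 1 of H1, 2 of H2B and 1 of H4. The 4 are examples and do not stand for their families. H4c1 is the only 1 of 12 H4 genes with an E2F match in the windows counted below, and no H3 promoter is shown. The sequences are RefSeq's for GRCm38.p6, the 250 bases before each annotated start, read 5′ to 3′ on the gene's strand. The windows are chr13:23738557-23738806 for H1f2, chr13:23571150-23571399 for H2bc8 and chr13:22042948-22043197 for H2bc11, all on the plus strand, and chr13:23761250-23761499 on the minus strand for H4c1. Capitals mark exact matches, on either strand, to an E2F motif (TTTGGCGC, TTTCCCGC, TTTCGCGC or TTTGCCGC), to the octamer ATTTGCAT bound by Oct1, or to the CCAAT box. A match is a string of letters and does not show that a factor binds it.
H1f2: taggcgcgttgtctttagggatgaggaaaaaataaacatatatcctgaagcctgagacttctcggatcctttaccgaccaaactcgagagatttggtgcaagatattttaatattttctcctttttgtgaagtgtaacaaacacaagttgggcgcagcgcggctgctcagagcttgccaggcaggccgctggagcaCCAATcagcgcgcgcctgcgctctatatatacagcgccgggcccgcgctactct
H2bc8: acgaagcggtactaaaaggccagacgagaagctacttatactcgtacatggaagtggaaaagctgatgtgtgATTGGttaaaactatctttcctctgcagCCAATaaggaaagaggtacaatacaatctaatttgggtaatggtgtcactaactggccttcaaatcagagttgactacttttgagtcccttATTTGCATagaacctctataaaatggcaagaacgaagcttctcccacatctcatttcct
H2bc11: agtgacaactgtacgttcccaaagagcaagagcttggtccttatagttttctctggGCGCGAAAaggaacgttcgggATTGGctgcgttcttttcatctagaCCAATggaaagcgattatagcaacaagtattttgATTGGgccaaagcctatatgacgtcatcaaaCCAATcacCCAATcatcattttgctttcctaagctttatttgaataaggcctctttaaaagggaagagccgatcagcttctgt
H4c1: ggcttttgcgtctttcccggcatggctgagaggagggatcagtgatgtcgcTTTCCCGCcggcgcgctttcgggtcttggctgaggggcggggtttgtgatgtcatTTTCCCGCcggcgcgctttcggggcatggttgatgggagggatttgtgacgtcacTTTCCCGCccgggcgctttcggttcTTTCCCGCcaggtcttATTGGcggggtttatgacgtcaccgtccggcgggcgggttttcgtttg

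The 4 promoters differed in what they held. H1f2 held a single CCAAT box, from 54 to 50 bases before the start. H2bc8 held an octamer from 59 to 52 bases before the start, with 2 CCAAT boxes further out. H2bc11 held 5 CCAAT boxes and 1 E2F match, TTTCGCGC on the opposite strand, from 194 to 187 bases before the start. H4c1 held 4 copies of TTTCCCGC, the nearest from 64 to 57 bases before the start, and 1 CCAAT box. None of the marked matches overlapped another.

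Windows of 300 bases (250 before and 50 after the start) were found in the RefSeq table for 74 of the 81 histone genes, 49 in clusters and 25 variants. H2ax, the variant unit that fell, is not among the 25, and 11 of the 25 belong to the H2al1 group of near-identical copies. Of the cluster genes with a window, 40 lie on chromosome 13, 6 on chromosome 3, 2 on chromosome 11 and 1 on chromosome 6. An E2F motif stood in 8 of the 49 cluster windows (16.33%) and in 0 of the 25 variant windows, against 2.6% of the windows of all 27025 genes in the table. The octamer stood in 9 cluster windows (18.37%) and 1 variant window, that of H3f3b (4.0%), against 1.97% of all. The CCAAT box stood in 40 cluster windows (81.63%) and 9 variant windows (36.0%), against 41.06% of all.

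The families divided these motifs unequally. E2F matches stood in 4 of 13 H2A, 3 of 11 H2B and 1 of 12 H4 windows, and in 0 of 10 H3 and 0 of 3 H1 windows. The octamer stood in 5 of 13 H2A and 4 of 11 H2B windows and in 0 of those of H1, H3 and H4. CCAAT boxes stood in all windows of cluster H1, H2A, H2B and H3 and in 3 of 12 of H4. The H3 group, with 0 E2F matches in these windows, and the H4 group, with 1 gene that held any, both fell. Any link between motif matches and the differences was not tested. In 6 cases an H2A and an H2B gene shared a divergent promoter, with starts 168 to 249 bases apart, so their windows overlap and are not independent. The promoters of H2bc8 and H2bc11 printed above are of this kind, shared with H2ac8 and H2ac11. Except for H2ac12 and H4c1, the cluster genes with an E2F match all lie in such pairs. These are H2ac7 with H2bc7, H2ac11 with H2bc11 and H2ac22 with H2bc22, where a single site can count for both genes.

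Linker histones were represented in the clusters by H1f2, H1f4 and H1f6. H1f2, a main somatic linker histone, read 11.20, 10.62, 11.02 and 10.72 in control replicates 1 to 4 and 9.53, 9.60, 9.60 and 9.28 in the experimental ones. The 4 experimental arrays lay close together, below every control. The difference was -1.39 ± 0.14 (SE, n = 4 against 4, adjusted p = 0.00266), a 2.62-fold lower level. A second probe set of H1f2, 1436994_a_at, fell by 1.60 ± 0.19 (adjusted p = 0.00500), and the dimmest, 1438204_at, differed by -0.53 without passing (adjusted p = 0.123), though its groups did not overlap either.

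H1f4, another somatic linker histone, read 6.47, 5.52, 4.35 and 5.16 in the controls and 3.71, 3.65, 2.99 and 2.99 in the experimental arrays. The controls spread widely and still did not overlap the experimental arrays. The difference was -2.04 ± 0.39 (SE, adjusted p = 0.0271). No fold is given, since the experimental arrays lay below the array medians and were not shown to be above background. This call was lost when any of 5 arrays was left out (control replicates 2 and 4, experimental replicates 1, 3 and 4), with adjusted p up to 0.0884 (0.0884 without control replicate 2), and was also lost with sex as a block (0.0594). H1f6, the testis linker histone that lies in the same cluster, read between 4.40 and 4.91 in controls and between 4.60 and 4.79 in experimental arrays, a difference of 0.09 ± 0.12 that did not pass (adjusted p = 0.753).

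Cluster H2A genes fell in both of their multigene groups. The group annotated to 10 genes (H2ac4, H2ac6, H2ac7, H2ac8, H2ac11, H2ac12, H2ac13, H2ac22, H2ac23 and H2ac24) read 13.65, 13.71, 13.57 and 13.58 in controls and 12.94, 13.05, 13.03 and 12.80 in experimental arrays. The arrays of each group lay close together and the groups did not overlap. The difference was -0.67 ± 0.09 (SE, adjusted p = 0.00803), or 1.59-fold. Its levels approached the highest value on each array, 14.36 to 14.54, where a probe set has little room left to rise. The part of this in the size of the difference was not tested.

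The second group, H2ac18 and H2ac19 on chromosome 3, is represented by a probe set of H2ac19 alone. It read 10.12, 10.20, 9.90 and 10.25 in controls and 9.26, 8.86, 8.53 and 8.56 in experimental arrays. The controls lay within a narrow band and experimental replicate 1 was the highest of its group. The difference was -1.31 ± 0.16 (SE, adjusted p = 0.00622), and the other probe set of H2ac19, 1418366_at, fell by 1.38 ± 0.16 (adjusted p = 0.00500). The probe set annotated to both genes, 1438815_at, was dim and did not pass (difference 0.11, adjusted p = 0.604).

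H2aw, an H2A gene outside the large clusters, on chromosome 11, read 8.45, 8.58, 8.39 and 8.19 in controls and 7.82, 8.13, 7.98 and 8.04 in experimental arrays. The groups did not overlap but lay close. The difference of -0.41 ± 0.11 did not pass (adjusted p = 0.0918, and 0.0593 to 0.238 over the alternatives tried). Its brightest probe set is also annotated to Trim17. A second probe set, 1435866_s_at, differed by -1.50 ± 0.36 (adjusted p = 0.0628) and passed with replicate number (0.0403) or sample code style (0.0175) as a block. Replicates 1 and 2 alone gave -2.26, and replicates 3 and 4 alone gave -0.74.

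Cluster H2B genes were led by a probe set annotated to 10 of them (H2bc4, H2bc6, H2bc7, H2bc8, H2bc11, H2bc13, H2bc14, H2bc15, H2bc22 and H2bc23). It read 11.92, 11.23, 11.10 and 11.51 in controls and 10.40, 9.70, 9.77 and 9.49 in experimental arrays. Replicate 1 was the highest in both groups and the groups did not overlap. The difference was -1.60 ± 0.22 (SE, adjusted p = 0.00936), or 3.03-fold. Of the 6 probe sets of this unit 3 fell. The probe set of H2bc4, H2bc6 and H2bc8, 1418072_at, fell by 1.51 ± 0.23 (adjusted p = 0.0116). Of the same genes, 1440330_at (-0.37, adjusted p = 0.110) and 1445565_at (-0.40, 0.107) did not pass, though their groups did not overlap. The probe set annotated to H2bc7, H2bc11, H2bc13, H2bc15 and H2bc23, 1425398_at, did not pass (-0.52, adjusted p = 0.138), and its groups overlapped. Both 1425398_at and the brightest probe set are also annotated to the symbol H4bc24.

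The probe set of H2bc22 alone, 1427762_x_at, fell by 1.04 ± 0.21 (adjusted p = 0.0326). It lost that call without control replicate 1, 2 or 4, without experimental replicate 3 or 4 and with sex as a block, with adjusted p of 0.0930 at most, without control replicate 4. The remaining H2B units were dim. H2bc21 differed by -0.51 ± 0.16 (adjusted p = 0.132, and 0.0437 with code style as a block), H2bc18 by -0.44 ± 0.37 (adjusted p = 0.605) and the unit of H2bu1-ps and H2bu2 by -0.30 ± 0.19 (adjusted p = 0.488). The H2bc18 probe set went in opposite directions, at 0.50 in replicates 1 and 2 and at -1.38 in replicates 3 and 4.

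By brightest probe sets, the H3 group had the largest difference of the 26 units, an order that does not hold for the mean of all probe sets of a unit. Its brightest probe set, annotated to 12 genes (H3c1, H3c2, H3c3, H3c4, H3c6, H3c7, H3c8, H3c10, H3c11, H3c13, H3c14 and H3c15), read 11.47, 10.51, 9.97 and 10.88 in controls and 8.94, 8.35, 8.69 and 8.39 in experimental arrays. The lowest control stood above the highest experimental array. The difference was -2.11 ± 0.28 (SE, adjusted p = 0.00783), a 4.33-fold lower level. Replicates 1 and 2 alone gave -2.35 and replicates 3 and 4 alone -1.88.

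All 8 probe sets of the H3 unit had differences below 0 and 2 of them passed. The other was 1422155_at, annotated to 8 of the genes, at -0.89 ± 0.18 (adjusted p = 0.0323). Leaving out any of control replicates 2, 3 and 4 and experimental replicates 1 and 4 ended that call, with adjusted p up to 0.0905, reached without control replicate 4. The 12 genes are also annotated to a second, dimmer probe set, 1427864_at, which differed by -0.42 ± 0.19 (adjusted p = 0.298). The 3 probe sets of a single H3 gene did not pass: H3c7 at -0.57 (adjusted p = 0.0697), H3c4 at -0.13 (0.780) and H3c11 at -0.05 (0.927). With code style as a block, the H3c7 probe set 1431231_at (adjusted p = 0.0338) and 1442051_at, annotated to 8 genes (0.0364), passed as well. Which of the 12 genes changed in the brightest probe set is not resolved by its annotation.

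The H4 group is annotated to 13 genes (H4c1, H4c2, H4c3, H4c4, H4c6, H4c8, H4c9, H4c11, H4c12, H4c14, H4c17, H4c18 and H4f16) in every one of its 5 probe sets. The brightest read 11.66, 10.66, 10.30 and 10.99 in controls and 9.83, 8.87, 9.23 and 8.98 in experimental arrays. The groups did not overlap, with control replicate 3 nearest to experimental replicate 1. The difference was -1.68 ± 0.29 (SE, adjusted p = 0.0202), or 3.20-fold, and it missed the threshold without control replicate 2 (0.0532), control replicate 4 (0.0659) or experimental replicate 4 (0.0561).

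Of the other H4 probe sets, 1424854_at fell by 1.06 ± 0.13 (adjusted p = 0.00589) and passed whichever array was left out. 1428014_at fell by 2.05 ± 0.35 (adjusted p = 0.0185), and missed without control replicate 2 (0.0514) or 4 (0.0631). The others, both dim, differed by -0.46 (1431658_at) and 0.23 (1422947_at) and did not pass. Probe sets with the same 13 symbols thus gave differences from -2.05 to 0.23.

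The H2B, H3 and H4 groups shared the order of their control arrays: replicate 1 was highest, then 4, then 2, then 3, in the brightest probe set of each. These are the same RNA samples, so the shared order is a description of the arrays. The control SDs were 0.37, 0.63 and 0.58, against 0.07 in the 10-gene H2A probe set. Cluster probe sets with a mean of at least 6 fell in 10 of 16 cases and dimmer ones in 4 of 19. Of all 16821 probe sets with a mean of at least 6, 2.85% fell. By units, 6 of 7 with a mean of at least 6 fell and 1 of 5 below it. Over all 35 cluster probe sets, 14 fell (40%) and 32 had a difference below 0. Without control replicate 2 or control replicate 4, 9 of the 35 passed.

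**Figure D2:**
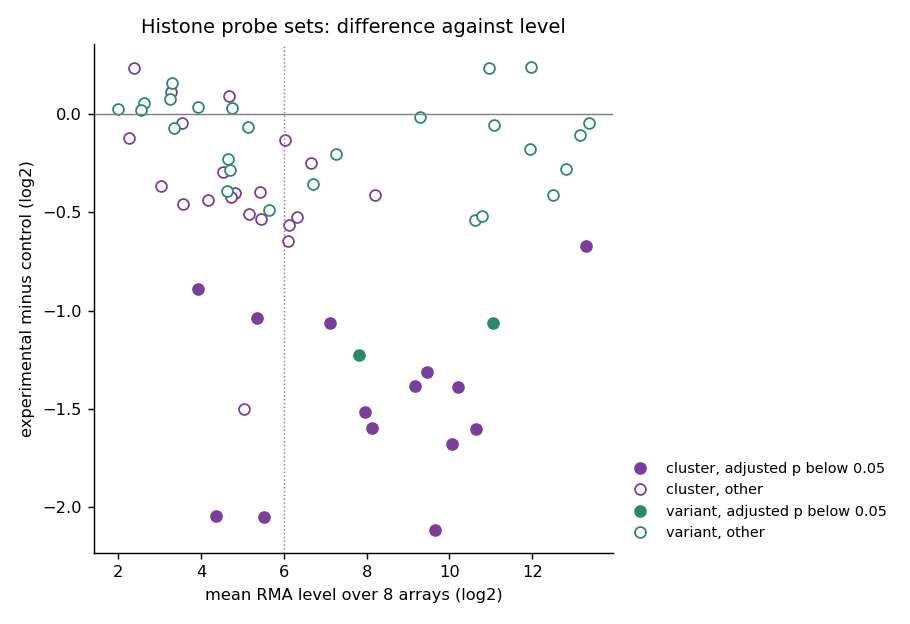
Difference, experimental minus control (log2, vertical axis), against the mean RMA level over 8 arrays (log2, horizontal axis) for the 63 histone probe sets, cluster in purple and variant in green, filled where the adjusted p was below 0.05; the dotted line stands at a mean of 6. Filled purple points, 10 to the right of the line and 4 to its left, all lie below 0, and 2 filled points are green (H2ax and the H3f3b probe set).

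Among the variants H2ax stood out. H2ax, whose protein is phosphorylated at DNA double-strand breaks, read 11.49, 11.49, 11.78 and 11.56 in controls and 10.25, 10.48, 10.83 and 10.49 in experimental arrays. Replicate 3 was the highest in both groups and the groups did not overlap. The difference was -1.06 ± 0.13 (SE, adjusted p = 0.00581), or 2.09-fold. It passed under all 17 alternatives that gave a value, with adjusted p between 0.00147 and 0.0229.

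H2az1, which encodes the main H2A.Z protein, read 13.57, 13.39, 13.33 and 13.31 in controls and 13.38, 13.50, 13.27 and 13.26 in experimental arrays. The groups overlapped throughout. This brightest probe set is also annotated to Gm8203. The difference was -0.05 (95% confidence interval -0.27 to 0.17, adjusted p = 0.865), and the other 3 probe sets of H2az1 differed by -0.02 to 0.24 without passing. The interval does not reach the size of the H2ax difference. H2az1 levels lie near the top of the array's scale, as those of the 10-gene H2A probe set do.

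H2az2, the gene of the second H2A.Z protein, read 11.05, 10.82, 10.86 and 10.80 in controls and 10.40, 10.51, 9.99 and 10.46 in experimental arrays. All 4 experimental arrays were below the controls and experimental replicate 3 was the lowest. The difference of -0.54 ± 0.13 missed the threshold (adjusted p = 0.0588) and passed with replicate number as a block (0.0475), with code style as a block (0.0300) and without experimental replicate 2 (0.0451). Over all alternatives its adjusted p ran from 0.0300 to 0.156. The dimmer H2az2 probe set, 1436596_at, differed by -0.49 ± 0.13 (adjusted p = 0.0813, and 0.0277 with code style as a block), again with no overlap.

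H3.3, the variant H3 placed outside replication, is encoded by H3f3a and H3f3b, and 7 probe sets cover these and H3f3c. Of the 7, 5 are annotated to all 3 genes, and also to Gm12657, Gm6749 and Gm10257. The brightest read 13.35, 13.17, 12.98 and 13.30 in controls and 13.35, 13.27, 12.80 and 12.96 in experimental arrays. These overlapped, with a difference of -0.11 (95% confidence interval -0.42 to 0.21, adjusted p = 0.764). All 7 had differences below 0. In 4 of them all experimental arrays lay below all controls, beside 1751 of the 16821 probe sets with a mean of at least 6.

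The single H3.3 probe set that passed without a block, 1430357_at, is annotated to H3f3b alone. With code style as a block 1420376_a_at, annotated to all 3 genes, passed as well (-0.52, adjusted p = 0.0555 without the block and 0.0284 with it). The H3f3b probe set, 1430357_at, read 8.36, 8.72, 8.51 and 8.14 in controls and 7.12, 7.63, 7.55 and 6.52 in experimental arrays. Its experimental replicate 4 was the lowest. The difference was -1.23 ± 0.23 (SE, adjusted p = 0.0282). The call was lost without any 1 of the 4 controls or without experimental replicate 1, with adjusted p from 0.0565 (without control replicate 4) to 0.0932 (without control replicate 2), and with sex as a block (0.0590). The probe set of H3f3a alone, 1442087_at, differed by -0.20 ± 0.12 (adjusted p = 0.424). Probe sets annotated to H3f3b thus disagreed, and which transcripts of H3f3b they read was not analysed here.

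The other 2 variant units of somatic cells did not pass. H2aj, an H2A variant, differed by -0.05 (95% confidence interval -0.39 to 0.28, adjusted p = 0.898) and H1f10, a linker variant, by -0.07 (-0.27 to 0.13, adjusted p = 0.758). The 8 units of germ cell variants (H1f7, H1f8, the H2al1 group, H2al2a, H2al3, H2ap, H2bfm and H2bl1), known mainly from male or female germ cells, had means between 2.54 and 4.75, under the array medians of 5.01 to 5.04. None of these 8 passed and their median difference was 0.03. Of all units with a mean below 6, 1 of 5 cluster units (H1f4) and 0 of 9 variant units fell. Among the brighter units 6 of 7 in clusters and 1 of 5 variants fell, beside 2.85% of all probe sets with a mean of at least 6.

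**Figure D3:**
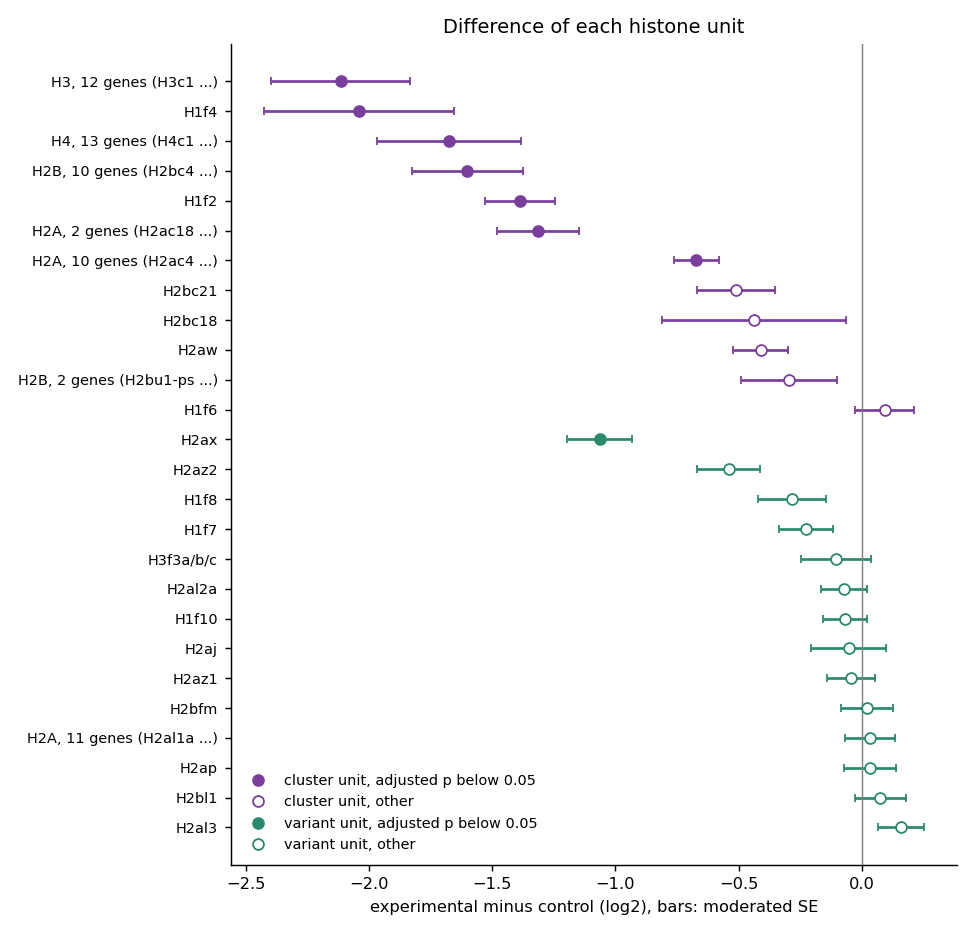
Difference of each histone unit, experimental minus control (log2, horizontal axis), as the brightest probe set of the unit with its moderated standard error, cluster units in purple above and variant units in green below, filled where the adjusted p was below 0.05. The 7 filled cluster units lie between -2.11 and -0.67, and the filled variant unit is H2ax at -1.06.

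Histone genes outside the naming rule did not pass. Cenpa, the centromeric H3, differed by -0.23 (adjusted p = 0.275), Macroh2a1 by 0.45 (0.380) and Macroh2a2 by 0.38 (0.292). Of 16 measured genes that make or process histone transcripts, 1 fell and 0 rose, with a median difference of -0.07. The one that fell was Ccne2, cyclin E2, a partner of Cdk2, at -1.10 ± 0.17 (adjusted p = 0.0138). Slbp, which encodes the stem-loop binding protein, differed by -0.06 (adjusted p = 0.823) and Npat, which encodes the coactivator of the histone clusters, by -0.05 (0.892).

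Of 23 measured histone chaperones and deposition factors, 4 rose and 1 fell, with a median of 0.06. The 4 were Chaf1b, the middle subunit of the CAF-1 chaperone of replicating chromatin, at 1.10 ± 0.10 (adjusted p = 0.00191), Mms22l at 0.84 (0.0194), its partner Tonsl at 0.66 (0.0203) and Hat1, the acetyltransferase of new H4, at 0.65 (0.0152). Chaf1b read 7.36, 7.43, 7.67 and 7.56 in controls and 8.71, 8.70, 8.49 and 8.53 in experimental arrays, above every control. Asf1b, a chaperone of H3 and H4, was the one that fell, at -0.67 ± 0.10 (adjusted p = 0.0114). The number of chaperones that rose was 2 without control replicate 1 and 2 without control replicate 4. Chaf1b and Asf1b passed whichever array was left out. Hat1 missed without control replicate 4 (adjusted p = 0.0516), Tonsl without control replicate 1, 2 or 4 (up to 0.0699) and Mms22l without control replicate 1 or experimental replicate 4 (up to 0.0619).

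Beside these, 17 of 26 measured S phase genes (helicase, origin, polymerase, nucleotide synthesis and other replication genes) rose, with a median of 0.74. The 1 that fell was Tyms, which missed without control replicate 4. Tyms was dim, at 5.57 to 5.66 in controls and 4.95 to 5.24 in experimental arrays, near the array medians of 5.01 to 5.04. Leaving out 1 array gave 13 to 16 S phase genes that rose. Of 19 mitosis genes 0 rose and 9 fell, with a median of -0.49. Cluster histones, which are made in S phase, had the sign of the mitosis list and not of the S phase list. The mitosis count dropped to 5 on leaving out any of control replicates 1, 3 and 4 and experimental replicate 4. How far the share of cells in each phase differed was not tested.

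**Figure D4:**
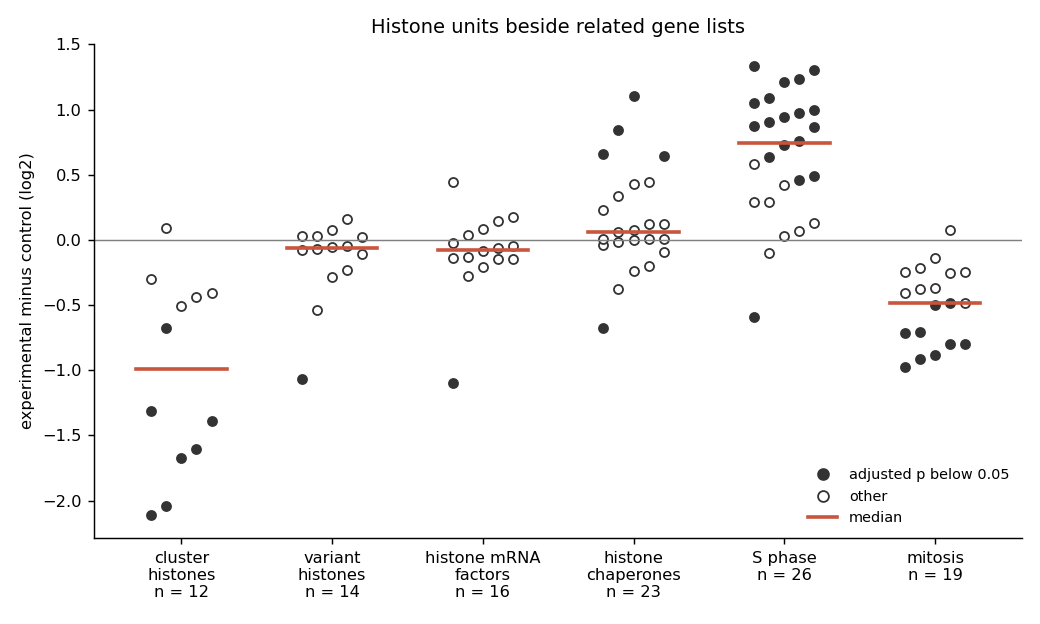
Difference, experimental minus control (log2, vertical axis), of each histone unit and of each measured gene of the histone mRNA, chaperone, S phase and mitosis lists, with 1 point a unit or gene, filled where the adjusted p was below 0.05, and a red line at each median. The medians are -0.99 for cluster and -0.06 for variant histone units, -0.07, 0.06, 0.74 and -0.49 for the lists.

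Some other features of the arrays moved with the groups and others did not. Itgam, the gene of Cd11b, read 11.50 to 11.66 in controls and 11.25 to 11.90 in experimental arrays. Its groups overlapped, with a difference of -0.04 (adjusted p = 0.911). Of 9 measured B cell markers 4 fell (Cd79a, Cd79b, Ms4a1 and Vpreb3; 2 without control replicate 4), all 9 were below 0, and the log2 of their summed level was 10.40 to 11.49 in controls and 9.42 to 10.04 in experimental arrays. Of 5 megakaryocyte markers 2 fell (Pf4 and Ppbp), with a summed level of 9.15 to 9.79 against 8.45 to 8.67. No T and NK, monocyte or handling marker passed, 1 of 7 neutrophil markers (Csf3r) fell and 1 of 5 promyelocyte markers (Ms4a3) rose, a call kept in 3 of the 8 fits without 1 array. Of 6 erythroid markers 0 passed. With replicate number as a block, 2 promyelocyte markers and 1 erythroid marker rose and 5 B cell and 3 megakaryocyte markers fell, and with code style as a block 3, 0, 5 and 3 did. The log2 ratio of 3′ to 5′ actin probe sets, a sign of RNA quality, was 0.27 to 0.32 in controls and 0.34 to 0.54 in experimental arrays, without overlap, and that of Gapdh overlapped (-0.14 to -0.09 and -0.16 to 0.03). By Xist the controls were 2 female and 2 male samples and the experimental group 3 and 1. The part of the marker genes, of the actin ratio and of the cell mix in the histone differences was not tested. Of the 7 probe sets of the targeted genes, 1 of E2f2 (1455790_at) fell, by 0.66 (adjusted p = 0.0351; kept in 2 of the 8 fits without 1 array), and the 6 others, of E2f1, E2f2 and E2f3, did not pass. Transcripts of the genes labelled null were still read: E2f2 at 1436434_at was 9.54 to 10.20 in controls and 9.08 to 9.53 in experimental arrays, and E2f1 at 1417878_at was 6.71 to 7.03 and 6.81 to 8.08. Their position in or outside the deleted exons was not analysed here. Outside them, such a reading is no check of the genotype.

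The labels code the samples in 2 styles, digit then letter for replicates 1 and 2 and letter then digit for replicates 3 and 4, and each style holds both groups. The median difference of the cluster units was -0.89 in the first style and -1.41 in the second. For the variant units it was 0.01 and -0.11. All 7 cluster units with a mean of at least 6 had differences below 0 within each style, and their medians were -1.35 and -1.53.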

How the data were processed

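Levels were taken from the table of all 8 arrays, whose values the authors deposited on the log2 scale, 1 per probe set. RMA (background correction, quantile normalization and probe summary) is named in the submitters' processing notes without a version; joint normalization of the 8 arrays is not stated. Affymetrix control probe sets (64 of 45101) were left out. Each of the other 45037 was fitted with limma 3.58.1 in R 4.3.3 (lmFit, eBayes, design of group alone) and Benjamini-Hochberg adjustment across all probe sets, at a threshold of 0.05. Errors of differences are moderated standard errors. The number of arrays limits the precision.

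Symbols came from GEO's platform annotation (34945 probe sets with 1 symbol, 932 with several, 9160 with none). All 81 histone genes matched RefSeq by gene identifier, with 0 symbols changed. H2bc6 has 2 windows in the RefSeq promoter table and counts once; overlapping motif matches were counted separately. Genes of the comparison lists are represented by their brightest probe set with 1 symbol. Named are units that passed or did not overlap between groups, the 5 brightest units of each class, the somatic variants, list members that passed and, chosen after their values were seen, further probe sets of those units. The histone genes and the lists were chosen with earlier results of these data known.

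Deviations from the group mean correlated at 0.20 to 0.26 between arrays of the same replicate number, so the number may pair the samples. A fit with it as a block therefore stands beside the main fit. The values printed are nevertheless from the fit without a block, and blocked values stand beside a result where they change its call. Arrays of another number and the same code style correlated about as much, at 0.14 to 0.26, so replicate number and code style are not separated by this check, and those of the other style correlated at -0.27 to -0.13. No pair of arrays held identical values (highest correlation 0.994). The fit was tested on simulated data with known changes. Alternatives were blocks, scalings, filters on dim probe sets, variance models, other ways of representing a unit, leaving out each array and, added after the data were seen, sex read from Xist as a block.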

Additional observations from a re-analysis of the deposited data

Results flagged for a closer look

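1 value stood apart from the others of its group among 68 groups of 4 arrays checked, a check that chance alone meets in about 1 group in 20. H2bl1, a germ cell H2B variant measured by 1429828_at, read 3.48 in control replicate 3, against 3.14 in the nearest control and 3.12 in the farthest. The probe set is among the dimmest and its difference between the groups did not pass.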

How the results depend on the processing

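Over all settings run, 0 cluster and 0 variant units rose, and no histone difference that passed changed sign. With the replicate number as a block (pairing), the probe sets past the threshold went from 1162 to 2277 and variant units that fell from 1 to 2, with 7 cluster units as without it; the block changed no other unit's call, by its brightest probe set. Code style as a block gave 2582 probe sets, 8 cluster units and 2 variant units, and sex as a block gave 663 probe sets and 6 cluster units. Leaving out 1 array gave 395 to 1744 probe sets (466, 395, 738 and 421 without control replicates 1 to 4; 629, 1744 and 586 without experimental replicates 1, 2 and 4), 5 to 7 cluster units and 1 to 2 variant units, 2 without experimental replicate 2. H1f4 and the H4 group account for the lost cluster calls. Variant units that fell were also 2 above the median level, with a mean of at least 6, with array weights, with the mean of all probe sets of a unit and by genes with 1 symbol; the second was H2az2 in the first 3. The cluster median was -1.35 above the median level, -1.39 with a mean of at least 6, -0.67 with the mean of all probe sets of a unit and -0.57 by genes with 1 symbol, where 4 of 11 cluster genes fell (H1f2, H1f4, H2ac19 and H2bc22) and 2 of 14 variant genes (H2ax and H3f3b). The filters leave fewer units, and the last setting leaves out probe sets shared by several genes; the cause of other shifts was not tested. Dim probe sets limit what can be seen, since signal over background is not given for them.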
